A study of Mus musculus with 28 samples.

Results

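Endothelium was 1 of the 12 cell types that the study annotated in embryoid bodies, the aggregates that mouse embryonic stem cells form as they differentiate. The cells described here are those that the deposited annotation calls endothelium in the libraries of days 4 to 5. There were 637 such cells among 12763 annotated cells in these 8 libraries, and 31596 in the whole series of 14 libraries. No endothelium cell came from a library of day 3 or day 3.5. Of the 637 cells, 431 were from Eomes-KD libraries and 206 from WT libraries.

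Both groups were made from the same embryonic stem cell line, which carries a Venus reporter at Runx1 and an mCherry-degron tag on Eomes, so the WT cells carry the tagged protein as well. Eomes-KD cultures received 100 nM dTAG-13, a small molecule that sends the tagged EOMES protein for degradation, and WT cultures received the solvent DMSO. Treatment started at day 3. The study's methods end it with the change of medium at day 4, while the series description gives a window to day 5. Both RNA and chromatin were read from the same nuclei (10x Genomics multiome). The counts, percents, doublet scores, atlas labels, mapped stages and their scores used here come from the RNA. The clusters, the types grouped from them and the UMAP rest on factors that the authors made from RNA and chromatin together. There were 4 Eomes-KD and 4 WT libraries: both groups had 1 library of experiment 1 (exp1) and 1 of experiment 2 (exp2) at day 4, 1 at day 4.5 (exp1 alone) and 1 at day 5 (exp2 alone). Day 4.5 and day 5 therefore cannot be told apart from the experiments, and within each of these days condition cannot be told apart from library. The experiments were separate differentiations of 1 line, and only day 4 held both. The p-values therefore measure the spread between the cultures of day 4 together with how the group difference changed between days. Day 4 had only 29 endothelium cells, so the fits within the endothelium take little from replicate cultures.

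Endothelial cells line blood vessels and the heart. In the early mouse embryo they arise from mesoderm that expresses Kdr, the receptor for VEGF, and in the yolk sac they share progenitors with the blood lineages. Haematoendothelial progenitors are cells that can give both, and erythro-myeloid progenitors (EMP) are blood progenitors that bud from yolk sac endothelium. The allantois, the outgrowth that becomes the umbilical cord, forms its own vessels, and endocardium is the endothelium of the heart. Eomes encodes a T-box factor that acts in the primitive streak and in early mesoderm.

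Genes were not measured in the table used here, so Pecam1, Cdh5 and Kdr, which mark endothelium, could not be examined, and the type was set against the labels transferred from a mouse gastrulation atlas. Of the 637 cells, 534 (83.8%) carried an endothelial atlas label, namely Allantois_endothelium (252 cells), Venous_endothelium (172), Endocardium (109) or Embryo_proper_endothelium (1). A further 44 were labelled Allantois, 35 Haematoendothelial_progenitors and 16 EMP, and 8 cells had other labels. All 637 cells formed cluster 15 of the study's 18 clusters, and that cluster held no other cell, so no split by these clusters was possible. The paper also divided its endothelium into finer subclusters, some with an allantois signature that it found abundant in Eomes-KD. Those subclusters were not among the values used here. Annotated cells per library numbered 445 to 2966 and the total RNA count per library ranged from 7262460 to 35951533. Of the endothelium cells, 30 (4.71%) had a barcode that also occurred in another library, and no barcode was endothelium in more than 1 library.

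Endothelium was nearly absent at day 4 and made up between 11.7% and 19.9% of the cells at days 4.5 and 5 in both groups. At day 4 it held 18 of 1453 Eomes-KD cells, against 4 of 1443 WT cells, in exp1, and 4 of 2966 Eomes-KD cells, against 3 of 2818 WT cells, in exp2. At day 4.5 the share was 13.1% in Eomes-KD (225 of 1722 cells, exact 95% binomial interval 11.5% to 14.8%) and 11.7% in WT (52 of 445, 8.85% to 15.04%). At day 5 it was 15.6% in Eomes-KD (184 of 1177, 13.6% to 17.8%) and 19.9% in WT (147 of 739, 17.1% to 23.0%). Such intervals cover counting error only, not the spread between cultures. The order of the groups thus turned between the days.

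**Figure D1:**
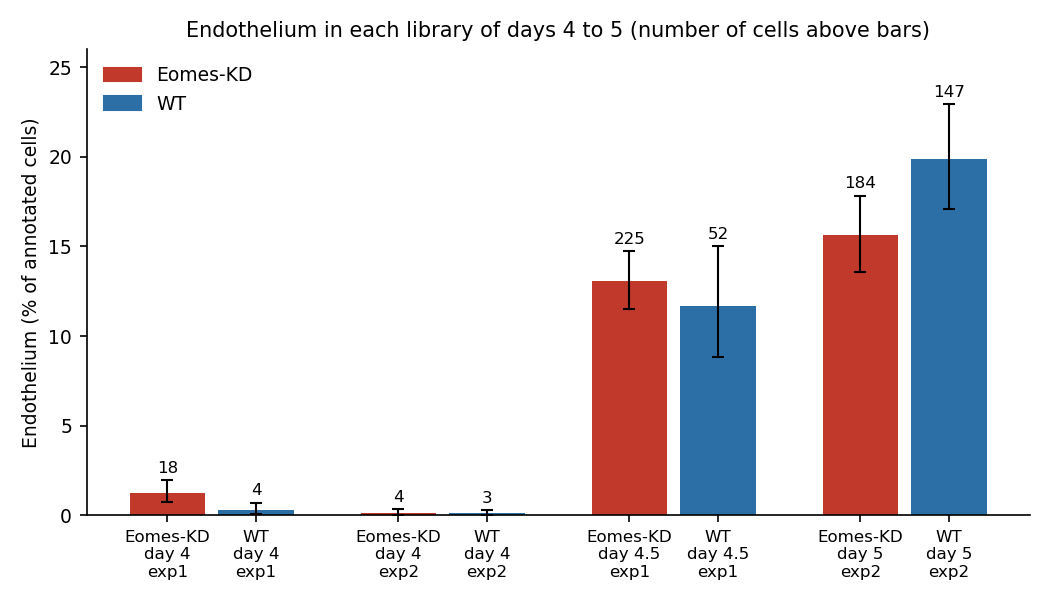
Endothelium as a percent of the annotated cells of each library (y axis), with exact 95% binomial intervals and the number of endothelium cells above each bar; Eomes-KD bars stand left of WT bars in each pair. The bars of day 4 reach at most 1.24%, and those of days 4.5 and 5 lie between 11.7% and 19.9%.

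The share was tested with edgeR's quasi-likelihood test on cells per type, with day as a term and Benjamini-Hochberg adjustment over the 12 types. For endothelium the log2 ratio of Eomes-KD over WT was 0.62 (SE 0.61, adjusted p = 0.345), so no difference was called. In the same fit 7 of 12 types were called (58.3%), 3 higher and 4 lower in Eomes-KD. Without the exp1 Eomes-KD library of day 4 the endothelium ratio was -0.15, and with days 4.5 and 5 alone it was -0.10, so its sign rested on the 18 cells of that library.

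The makeup of the endothelium by atlas label differed between the groups in its blood-related labels. Haematoendothelial_progenitors and EMP labels fell in Eomes-KD, whereas the endothelial labels did not pass the test. This was tested with edgeR on endothelium cells per label, with the endothelium cells of a library as its size and the 6 labels of 10 or more cells. Of these 6 labels, 2 were called (33.3%), both lower in Eomes-KD. Shares within the endothelium add up to the whole, so a lower share of some labels goes with a higher share of others.

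Haematoendothelial_progenitors labels were held by 9 of 225 endothelium cells in Eomes-KD (4.00%, interval 1.85% to 7.46%) and by 9 of 52 in WT (17.3%, 8.23% to 30.3%) at day 4.5. At day 5 they were held by 0 of 184 cells in Eomes-KD and by 15 of 147 in WT (10.2%, 5.83% to 16.3%). A count of 0 allows up to 3 cells, or 1.63%, in the Eomes-KD library, taken here as a floor. The WT share was 6.26-fold this floor, a ratio that leaves out the WT interval. The fitted log2 ratio over all 8 libraries was -2.79 (SE 0.81, edgeR adjusted p = 0.0167).

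EMP labels were scarce at day 4.5, with 1 of 225 endothelium cells in Eomes-KD and 1 of 52 in WT. At day 5 there were none among 184 Eomes-KD cells and 12 among 147 WT cells (8.16%, interval 4.29% to 13.8%). This WT share was 5.01-fold the same floor of 3 cells, again without the WT interval. The edgeR adjusted p over the 8 libraries was 0.0167, the same as for Haematoendothelial_progenitors. The call therefore rested mainly on day 5, together with 2 EMP-labelled cells among the 7 WT cells of day 4, against none among the 22 Eomes-KD cells of that day.

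Both calls were lost in several of the alternatives. With DESeq2 the adjusted p was 0.0948 for EMP and 0.0959 for Haematoendothelial_progenitors, and with days 4.5 and 5 alone it was 0.113 for both. Without the exp1 WT library of day 4 it was 0.0703 and without the Eomes-KD library of day 5 it was 0.0649, again for both labels. Without the WT library of day 5 EMP fell under 10 cells, Haematoendothelial_progenitors had an adjusted p of 0.0483, and Endocardium was called higher in Eomes-KD (log2 ratio 2.38, adjusted p = 0.0483).

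These cells also had low RNA counts at day 4.5. Endothelium cells labelled Haematoendothelial_progenitors had a median RNA count of 9408 in Eomes-KD (9 cells) and 9656 in WT (9 cells), while cells with an endothelial label had 21360 in Eomes-KD and 14430 in WT. At day 5 the 15 labelled WT cells had a median of 12495, close to the 12908 of WT cells with an endothelial label. With each library restricted to cells above its median RNA count, both labels fell under 10 cells and were not tested. Among cells with an RNA count of 10000 to 20000, a range chosen after seeing the data, EMP again fell under 10 cells and Haematoendothelial_progenitors had a log2 ratio of -2.20 with an edgeR adjusted p of 0.440.

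In the same libraries the cells annotated as blood progenitors and as HE (haematoendothelial cells) also fell. Eomes-KD libraries held 1 blood progenitor at day 4.5 and none at day 5, against 73 and 157 in WT, and the edgeR adjusted p for the type was 4.76e-09. HE had a log2 ratio of -2.18 (SE 0.61, edgeR adjusted p = 0.00254). Counted over all annotated cells, both labels fell as well, so their fall was not confined to the endothelium. There Haematoendothelial_progenitors had a log2 ratio of -4.00 (SE 0.93, edgeR adjusted p = 0.000323). EMP had one of -5.94 (SE 1.33, edgeR adjusted p = 0.000255). The part of these wider changes in the labels within the endothelium was not tested. Within the endothelium, among cells with a doublet score under 0.5, both labels were still called (edgeR adjusted p = 0.0263 for each).

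Allantois_endothelium was the largest label in Eomes-KD endothelium. At day 4.5 it held 87 of 225 cells in Eomes-KD (38.7%, 32.3% to 45.4%) and 18 of 52 in WT (34.6%, 22.0% to 49.1%), shares whose intervals overlapped. At day 5 it held 97 of 184 cells in Eomes-KD (52.7%, 45.2% to 60.1%) and 41 of 147 in WT (27.9%, 20.8% to 35.9%). The fitted log2 ratio was 0.79 (SE 0.59, edgeR adjusted p = 0.283).

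Venous_endothelium was lower in share in Eomes-KD than in WT on both days, but not past the test. It held 58 of 225 cells in Eomes-KD (25.8%, 20.2% to 32.0%) and 20 of 52 in WT (38.5%, 25.3% to 53.0%) at day 4.5. At day 5 it held 33 of 184 cells in Eomes-KD (17.9%, 12.7% to 24.3%) and 48 of 147 in WT (32.7%, 25.2% to 40.9%). The log2 ratio was -0.53 (SE 0.47, edgeR adjusted p = 0.283). Only with label scores of 0.6 or more were these labels called, Allantois_endothelium higher (edgeR adjusted p = 0.0496) and Venous_endothelium lower (edgeR adjusted p = 0.0350). Median label scores of endothelium were themselves higher in Eomes-KD on both days, so this cut need not keep equal parts of the groups. Its part in these calls was not tested.

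Endocardium labels appeared at day 4.5 and were almost all in Eomes-KD at that time. They held 47 of 225 cells in Eomes-KD (20.9%, 15.8% to 26.8%) and 2 of 52 in WT (3.85%, 0.469% to 13.2%) at day 4.5, and 35 of 184 in Eomes-KD (19.0%, 13.6% to 25.5%) and 25 of 147 in WT (17.01%, 11.3% to 24.1%) at day 5. None of the 29 endothelium cells of day 4 had this label. The log2 ratio was 0.90 (SE 0.73, edgeR adjusted p = 0.283). It ranged over 0.16 to 2.38 when each library was left out in turn, with 0.16 without either library of day 4.5, 2.37 without Eomes-KD of day 5 and 2.38 without WT of day 5 (adjusted p = 0.0483).

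Cells labelled Allantois but grouped with the endothelium were 22 of 225 in Eomes-KD (9.78%) and 2 of 52 in WT (3.85%) at day 4.5, and 15 of 184 in Eomes-KD (8.15%) and 4 of 147 in WT (2.72%) at day 5. The log2 ratio of 1.48 did not pass the test (SE 0.69, edgeR adjusted p = 0.108). At day 4 the 22 Eomes-KD cells comprised 9 Allantois_endothelium and 10 Venous_endothelium cells, and the 7 WT cells comprised 3 Venous_endothelium cells and no Allantois_endothelium cell.

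**Figure D2:**
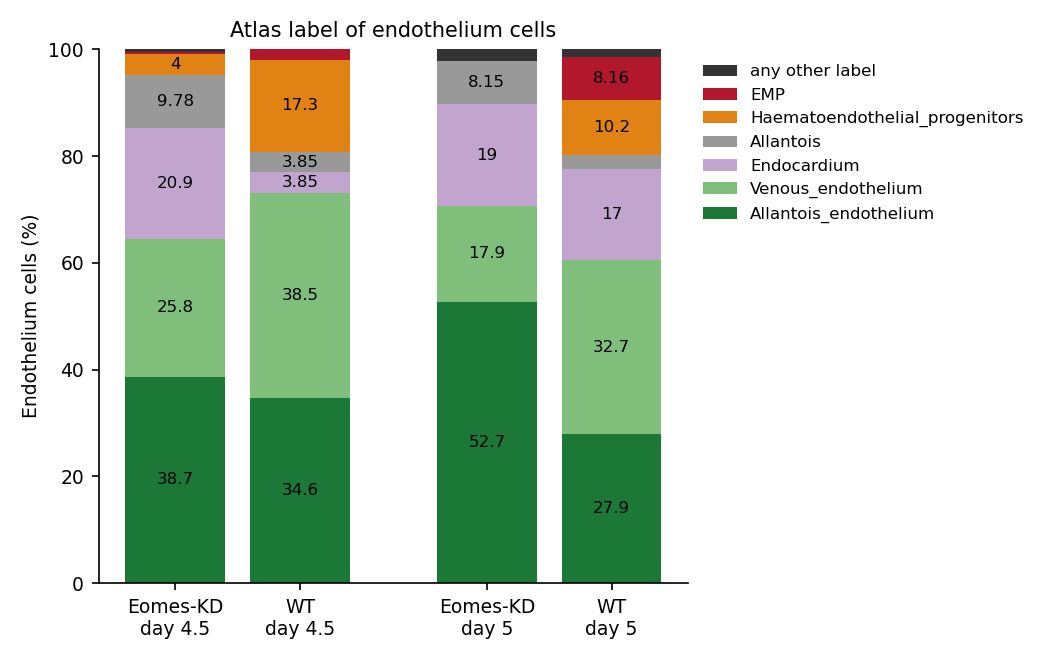
Atlas label of the endothelium cells in the libraries of days 4.5 and 5, as a percent of the endothelium cells of each library (y axis), Eomes-KD left of WT; numbers in the bars are percents. The blood-related labels (orange and red) make up 4.44% in Eomes-KD and 19.2% in WT at day 4.5, and 0% in Eomes-KD and 18.4% in WT at day 5.

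The mapped stage, the embryonic age of the atlas cells nearest to a cell, was later in Eomes-KD endothelium than in WT on both days. Cells mapped to E7.75 fell in Eomes-KD, and the later stages did not pass the test. At day 4.5, E7.75 held 12 of 225 cells in Eomes-KD (5.33%, interval 2.79% to 9.13%) and 14 of 52 in WT (26.9%, 15.6% to 41.0%). At day 5 it held 2 of 184 cells in Eomes-KD (1.09%, 0.132% to 3.87%) and 15 of 147 in WT (10.2%, 5.83% to 16.3%). At day 4 it held none of the 22 cells in Eomes-KD, against 2 of 7 in WT.

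In edgeR's test over the 4 stages of 10 or more cells, E7.75 had a log2 ratio of -2.67 (SE 0.49, adjusted p = 0.000225), and it was the only stage called (25.0%). It was also called in each of the 17 alternatives tried, with an adjusted p between 6.79e-06 and 0.0445. These included the cells above the median RNA count (log2 ratio -3.27) and the fits without each library (-3.46 to -2.45). The alternatives share libraries and cells, so they are not independent of each other. The ratios were -0.44 for E8.0, 0.65 for E8.25 and 0.52 for E8.5, with adjusted p of 0.228, 0.161 and 0.171 in the same edgeR fit. With TMM factors E8.25 (1.60, adjusted p = 0.0257) and E8.5 (1.19, adjusted p = 0.0442) were called higher in Eomes-KD as well, and the sign of E8.0 turned to 0.43. Without either of the 2 day 5 libraries E8.25 was called as well (log2 ratio 1.29, adjusted p = 0.0158).

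Cells mapped to E8.25 or E8.5 made up 74.7% of the endothelium in Eomes-KD (168 of 225, interval 68.5% to 80.2%) and 46.2% in WT (24 of 52, 32.2% to 60.5%) at day 4.5. At day 5 they made up 84.8% in Eomes-KD (156 of 184, 78.8% to 89.6%) and 57.8% in WT (85 of 147, 49.4% to 65.9%). At day 4.5 the gap lay at E8.25, with 41.3% in Eomes-KD and 17.3% in WT, while at day 5 it lay at E8.5, with 50.5% in Eomes-KD and 28.6% in WT. The mean mapped stage was embryonic day 8.248 in Eomes-KD and 8.10 in WT at day 4.5, and 8.33 in Eomes-KD and 8.14 in WT at day 5. The differences of 0.15 and 0.19 days each compare 1 library per group, so no test of them was made. The mapped stage was not compared with that of the other cells of these libraries. Whether the later stage is particular to the endothelium was therefore not tested.

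**Figure D3:**
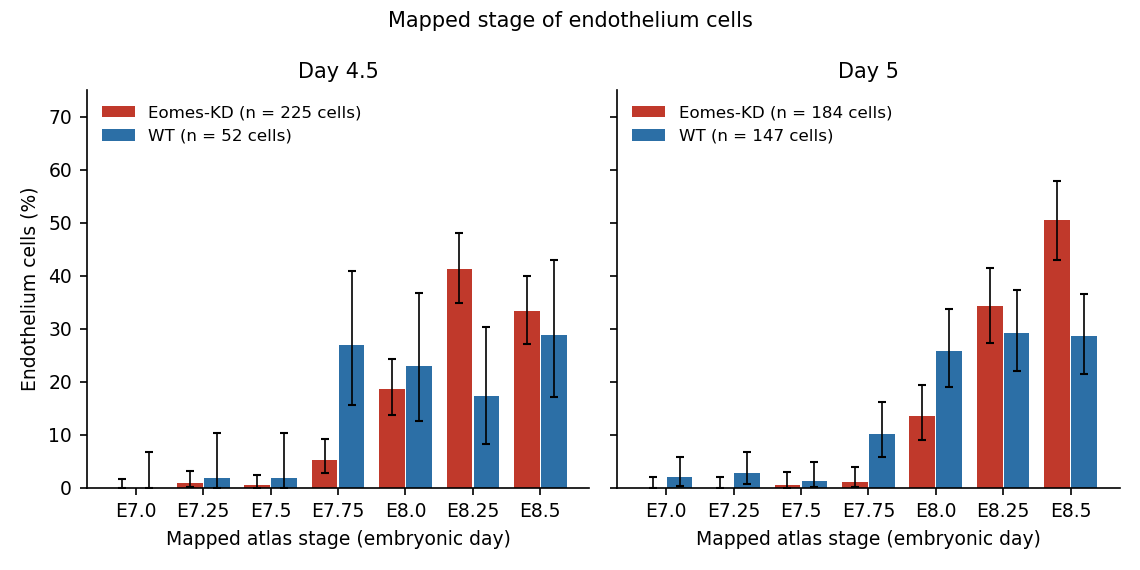
Mapped atlas stage of the endothelium cells (x axis) as a percent of the endothelium cells of each library (y axis), with exact 95% binomial intervals, for Eomes-KD (red, left bars) and WT (blue, right bars) at days 4.5 and 5. E7.75 is at 5.33% in Eomes-KD and 26.9% in WT at day 4.5, and at 1.09% in Eomes-KD and 10.2% in WT at day 5.

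The later stage was also present within labels, though not evenly. Within Allantois_endothelium, stages E8.25 and E8.5 together held 63 of 87 cells in Eomes-KD (72.4%) and 5 of 18 in WT (27.8%) at day 4.5, and 80 of 97 in Eomes-KD (82.5%) and 23 of 41 in WT (56.1%) at day 5. Of these, E8.5 alone held, at day 5, 27 of 97 cells in Eomes-KD and 4 of 41 in WT. Within Venous_endothelium the 2 days differed. At day 4.5 the stages E8.25 and E8.5 held 42 of 58 cells in Eomes-KD (72.4%) and 15 of 20 in WT, and at day 5 all 33 cells in Eomes-KD and 28 of 48 in WT (58.3%).

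E8.5 within Venous_endothelium held 30 of 33 cells in Eomes-KD (90.9%) and 13 of 48 in WT (27.1%) at day 5. Among the 3 endothelial labels this was the widest gap in E8.5 on that day. Endocardium-labelled cells were mapped to E8.25 or E8.5 without exception, in 82 Eomes-KD and 27 WT cells of these days. Their mean mapped stage at day 5 was 8.49 in Eomes-KD and 8.44 in WT. Cells labelled Haematoendothelial_progenitors were mapped to neither stage, in 9 Eomes-KD and 24 WT cells. With the cells restricted to endothelial labels, the mean mapped stage was later in Eomes-KD by 0.12 days at day 4.5 and 0.14 days at day 5. These comparisons within labels are descriptions with 1 library per group and day.

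The endothelial atlas labels were also counted over all annotated cells, whatever their annotated type. None of the 4 labels differed between the groups in edgeR's test (0 called, 0 with an unadjusted p under 0.05, and 0 of either kind with DESeq2), in a fit that called 11 of 22 labels (50.0%). Their log2 ratios were -0.21 for Allantois_endothelium (SE 0.81), -0.63 for Venous_endothelium (SE 0.83) and 0.73 for Endocardium (SE 1.17), with edgeR adjusted p of 0.872, 0.618 and 0.688. The sign of each of these 3 turned under at least 1 alternative. The standard errors, wide on the log2 scale, limit what this fit could call.

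At day 4 most cells with an endothelial label were annotated as HE. In exp1, 135 of 154 such cells were HE and 16 endothelium in Eomes-KD, and 144 of 145 were HE and 1 endothelium in WT. In exp2, 119 of 145 were HE and 3 endothelium in Eomes-KD, and 235 of 243 were HE and 2 endothelium in WT. Posterior_Mes took another 16 of these 145 cells in Eomes-KD (11.03%) and 3 of the 243 in WT (1.24%) in exp2. At day 4.5 the groups stood apart. Of the cells with an endothelial label, 192 of 217 were endothelium in Eomes-KD (88.5%) and 21 were HE (9.68%), while in WT 40 of 77 were endothelium (52.0%) and 32 were HE (41.6%). By day 5 the share annotated as endothelium was 96.0% in Eomes-KD (166 of 173) and 93.4% in WT (114 of 122).

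Most of these HE cells of day 4.5 had the Allantois_endothelium label. Among all cells with this label, 17 of 105 were HE in Eomes-KD (16.2%), against 24 of 47 in WT (51.1%). For Venous_endothelium it was 4 of 63 in Eomes-KD (6.35%), against 6 of 26 in WT (23.1%). Over all annotated cells, an endothelial label was held by 12.6% in Eomes-KD and 17.3% in WT at day 4.5 and by 14.7% in Eomes-KD and 16.5% in WT at day 5. Embryo_proper_endothelium was held by 17 Eomes-KD and 19 WT cells of days 4 to 4.5, none of them endothelium, and by 1 endothelium cell at day 5.

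The table also holds a coarser set of atlas labels, made by the same transfer. In this set 264 of the 637 cells were Endothelium and 306 were Haematoendothelial_progenitors. Cells labelled Allantois_endothelium in the finer set were Haematoendothelial_progenitors in the coarser set in 241 of 252 cases, whereas Endocardium was Endothelium in 108 of 109 and Venous_endothelium in 143 of 172. At day 5, coarse Haematoendothelial_progenitors labels held 117 of 184 endothelium cells in Eomes-KD (63.6%) and 52 of 147 in WT (35.4%), and at day 4.5 they held 99 of 225 in Eomes-KD (44.0%) and 25 of 52 in WT (48.1%). The same name thus counts different cells in the 2 sets, and the fall in Haematoendothelial_progenitors given above holds for the finer set.

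Endothelium cells in Eomes-KD matched the atlas with higher scores than those in WT. The label score is the fraction of the 25 nearest atlas cells that carry the assigned label. For the finer labels its median was 0.76 in Eomes-KD and 0.60 in WT at day 4.5, and 0.84 in Eomes-KD and 0.64 in WT at day 5. Medians of the stage score were 0.44 in Eomes-KD and 0.40 in WT at day 4.5, and 0.52 in Eomes-KD and 0.44 in WT at day 5. By label, Allantois_endothelium had a median score of 1.0 in Eomes-KD on both days, against 0.62 in WT at day 4.5 and 0.84 in WT at day 5. Venous_endothelium had 0.60 in both groups at day 4.5, and 0.72 in Eomes-KD and 0.56 in WT at day 5. Endocardium at day 5 had 0.72 in Eomes-KD and 0.68 in WT.

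The median score of the finer label in endothelium lay under that of the other cells of the same library in all 4 libraries of days 4.5 and 5. The score of the mapped stage did not: at day 5 it was 0.52 in endothelium and 0.44 in the other cells in Eomes-KD, and 0.44 and 0.40 in WT. For the finer label, the median of the other cells was 0.96 in Eomes-KD and 0.72 in WT at day 4.5, and 1.0 in Eomes-KD and 0.80 in WT at day 5, so this score was higher in Eomes-KD than in WT among the other cells as well. Allantois cells, the largest of the comparison types, had 1.0 in Eomes-KD on both days, and 0.96 and 0.88 in WT. HE cells at day 4.5 had 0.68 in Eomes-KD (28 cells) and 0.64 in WT (80 cells).

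The median RNA count of an endothelium cell was 21204 in Eomes-KD and 13428 in WT at day 4.5, and 13932 in Eomes-KD and 12821 in WT at day 5. In Eomes-KD it was above the median of the other cells of the library (18947 at day 4.5 and 11865 at day 5), while in WT it was below it (15597 and 12920). Median genes detected were 5403 in Eomes-KD and 4361 in WT at day 4.5, and 4619 in Eomes-KD and 4387 in WT at day 5. With only the upper part of each library by RNA count kept (cells over its median), the day 5 differences had the other sign, with Eomes-KD minus WT at -1588 for the RNA count and -277 for genes detected. Among cells with an RNA count of 10000 to 20000, the difference in the finer label score was 0.08 at day 4.5, against 0.16 among all cells, and 0.16 at day 5, against 0.20. The difference in mean mapped stage in that range was 0.13 days at day 4.5, against 0.15, and 0.14 days at day 5, against 0.19. The part of the RNA count in these differences was not tested across cultures.

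The mitochondrial percent went opposite ways on the 2 days. Its median in endothelium was 7.26% in Eomes-KD and 8.63% in WT at day 4.5, and 6.32% in Eomes-KD and 3.72% in WT at day 5. The other cells of these libraries had 7.43% in Eomes-KD and 6.96% in WT at day 4.5, and 4.70% in Eomes-KD and 2.92% in WT at day 5. The ribosomal percent was 9.63% in Eomes-KD and 9.24% in WT at day 4.5, and 9.42% in Eomes-KD and 7.97% in WT at day 5. Doublet scores had medians of 0.25 in Eomes-KD and 0.28 in WT at day 4.5, and of 0.21 in Eomes-KD and 0.29 in WT at day 5.

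**Figure D4:**
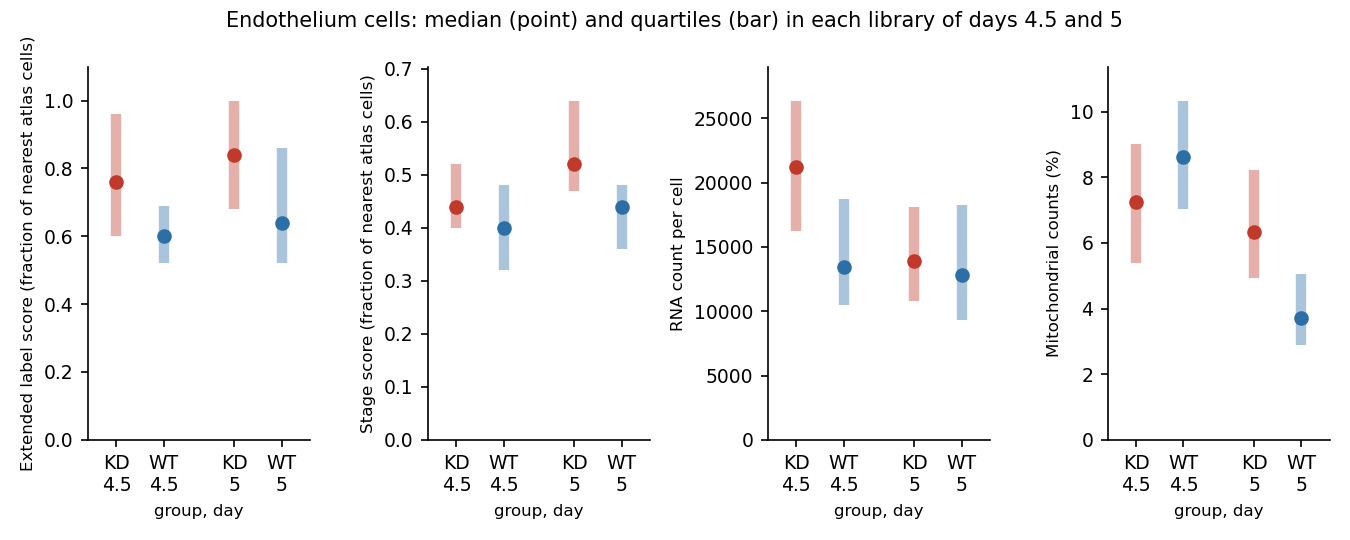
Median (point) and quartiles (bar) over endothelium cells of the finer label score, the stage score, the RNA count and the mitochondrial percent (y axes) in Eomes-KD (red) and WT (blue) libraries of days 4.5 and 5. Both scores are higher in Eomes-KD on both days, and the mitochondrial percent is lower in Eomes-KD at day 4.5 (7.26% and 8.63% in WT) and higher at day 5 (6.32% and 3.72% in WT).

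On the authors' UMAP the endothelium formed a curved band between the allantois and the blood progenitors, and Eomes-KD cells lay nearer to the allantois end. The map is a drawing of the factors behind it, which join RNA and chromatin, so its distances have no unit and were not tested. Each centre was the median position of all cells of that type in the whole series, both groups together. Blood progenitors of days 4.5 and 5 were nearly all WT cells, as given above, which the distances to their centre do not take into account. The median distance to the centre of the allantois cells was 4.08 in Eomes-KD and 4.73 in WT at day 4.5, and 3.54 in Eomes-KD and 4.68 in WT at day 5. The distance to the centre of the blood progenitors was 2.56 in Eomes-KD and 2.06 in WT at day 4.5, and 3.16 in Eomes-KD and 2.00 in WT at day 5. To the centre of HE it was 3.04 in Eomes-KD and 2.05 in WT at day 4.5, and 3.44 in Eomes-KD and 2.66 in WT at day 5. Along the UMAP's vertical axis, 221 of 225 Eomes-KD cells at day 4.5 and 181 of 184 at day 5 lay above the median of the WT endothelium of the same day.

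**Figure D5:**
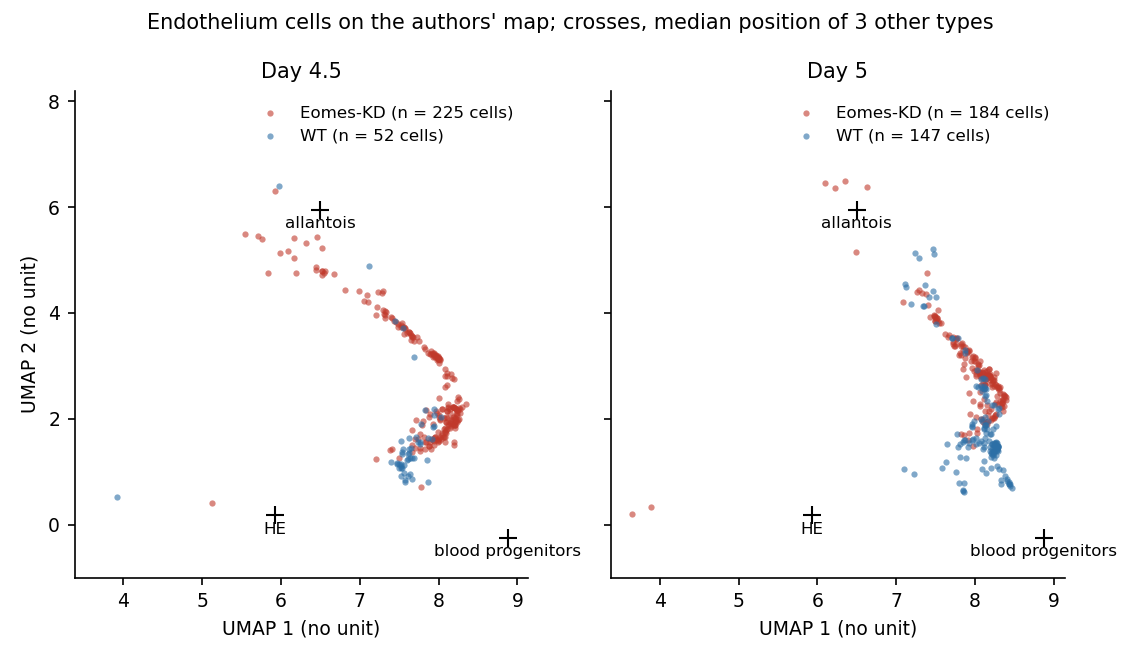
Positions of endothelium cells of days 4.5 and 5 on the deposited UMAP (both axes without unit), Eomes-KD in red and WT in blue. Black crosses mark the median positions of HE, blood progenitors and allantois cells over both groups of the whole series. Eomes-KD cells lie toward the allantois, at median vertical positions of 2.22 and 2.81 at days 4.5 and 5, against 1.34 and 1.54 for WT.

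The groups were separated on the map beyond their sizes. Among the 15 nearest endothelium cells of the same day, Eomes-KD cells made up on average 91.2% around an Eomes-KD cell and 41.2% around a WT cell at day 4.5, in a pair of libraries that was 81.2% Eomes-KD. At day 5 they made up 79.3% around an Eomes-KD cell and 25.4% around a WT cell, in a pair that was 55.6% Eomes-KD. Inside labels at day 5 the share was 80.4% around Eomes-KD and 14.3% around WT cells in Venous_endothelium, 79.6% around Eomes-KD and 24.8% around WT cells in Endocardium, and 84.2% around Eomes-KD and 44.4% around WT cells in Allantois_endothelium. Eomes-KD made up 40.7% of the cells with the Venous_endothelium label, 58.3% with Endocardium and 70.3% with Allantois_endothelium. Among cells labelled Allantois the share was 81.3% around the 15 Eomes-KD cells and 86.7% around the 4 WT cells. There the 15 neighbours were nearly all other cells of the label, so no order can be read from these shares. With 50 neighbours the gaps at day 5 were smaller, at 36.8 percentage points in Venous_endothelium against 66.1, 9.74 in Endocardium against 54.8, and 16.9 in Allantois_endothelium against 39.8. Venous_endothelium had only 33 Eomes-KD and 48 WT cells on that day, and Endocardium 35 and 25. In both labels 50 neighbours were most of the cells, so the gap could not stay as wide. Over all endothelium, with 50 neighbours the gap at day 4.5 was 37.3 percentage points instead of 50.1, and among cells above the median RNA count it was 28.9.

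The 15 nearest cells of any type and library were endothelium in 91.6% of cases for Eomes-KD endothelium and 81.9% for WT endothelium at day 4.5, and in 94.8% for Eomes-KD and 92.5% for WT at day 5. HE cells made up 1.54% of the neighbours in Eomes-KD and 11.7% in WT at day 4.5, and 0.942% in Eomes-KD and 2.90% in WT at day 5. Allantois cells made up 5.81% in Eomes-KD and 3.46% in WT at day 4.5. Blood progenitors were at most 1.91% of the neighbours, in WT at day 5, and were at 0% for Eomes-KD at that day. Cells labelled Haematoendothelial_progenitors in WT had HE cells for 25.2% of their neighbours at day 4.5, against 0.741% for the 9 Eomes-KD cells with that label. Neighbours came from both groups and all libraries, so these shares also depend on how many cells of each type each group held.

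Each cell also has a single nearest atlas cell in the table. The 225 Eomes-KD endothelium cells of day 4.5 were assigned to 116 different atlas cells and the 52 WT cells to 36, of which 11 were shared, 9.48% of the Eomes-KD set and 30.6% of the WT set. At day 5 the 184 Eomes-KD cells were assigned to 119 atlas cells and the 147 WT cells to 103, with 21 shared (17.6% of the Eomes-KD set and 20.4% of the WT set). Of the cells themselves, a shared atlas cell was assigned at day 4.5 to 28 of 225 in Eomes-KD (12.4%) and 22 of 52 in WT (42.3%), and at day 5 to 44 of 184 in Eomes-KD (23.9%) and 34 of 147 in WT (23.1%). The sets differ in size, so these shares depend on the number of cells in each library.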

How the data were processed

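Nuclei of 8 multiome libraries of days 4 to 5 (4 Eomes-KD, 4 WT) were taken from the deposited table of annotated cells, of which 17 of 28 columns were used. The submitters' processing notes name Cell Ranger ARC 2.0.1 and mm10. Per the study's methods the authors filtered cells on quality, removed doublets, joined RNA and chromatin with MOFA+, clustered the cells and grouped clusters into types. Deposited RNA counts and genes per cell are raw counts. The mitochondrial and ribosomal percent were computed by the authors per cell. The deposited doublet score (at most 1.25) and the UMAP coordinates, a score without unit, are the authors' own. Label and stage scores are a fraction of 25 nearest atlas cells, which the authors obtained library by library. Gene and chromatin values were not used here. Depletion of EOMES, which is of the protein, was not checked. The study's methods report it from intracellular flow cytometry in the same experiments. Groups came from the GEO labels.

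Cells per library and type, label or stage (10 or more cells) were compared with edgeR 4.0.16 (R 4.3.3, quasi-likelihood, no abundance trend, day as a term, Benjamini-Hochberg adjustment, threshold 0.05). The fit was checked on simulated counts of cell types at whole-library sizes. It was not checked at the smaller counts of labels and stages within the endothelium. DESeq2 1.42.0, TMM factors, no minimum, a replicate block, left-out libraries and subsets of cells were alternatives. The block joins libraries of 1 day and experiment, which the study's methods describe as collected together. Medians needed 20 or more cells for an interval. Shares have exact (Clopper-Pearson) 95% intervals, and a count of 0 was read with a floor of 3 cells. Named items were the 3 endothelial labels of the rule and each label, stage or cluster with 10 or more endothelium cells, with HE, blood progenitors and allantois for comparison. Members, lists and tests were chosen with earlier results of these data known. Tables and figures were made in Python 3.11.15 (pandas 2.3.3, numpy 2.4.6, matplotlib 3.10.9, scipy 1.17.1).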

Additional observations from a re-analysis of the deposited data

Results flagged for a closer look

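Values whose difference between Eomes-KD and WT had opposite signs at day 4.5 and day 5 are given here. With 1 library per group and day, none of these changes of sign was tested. The endothelium share of annotated cells was 1.38 percentage points higher in Eomes-KD at day 4.5 (13.07% in Eomes-KD, 11.69% in WT), while the difference at day 5 was -4.26 points (15.63% in Eomes-KD, 19.89% in WT). The coarse atlas label Haematoendothelial_progenitors within the endothelium differed by -4.08 points at day 4.5 (44.0% in Eomes-KD, 48.1% in WT) and by 28.22 points at day 5 (63.6% in Eomes-KD, 35.4% in WT). The median mitochondrial percent of endothelium cells differed by -1.365 at day 4.5 (7.26 in Eomes-KD, 8.63 in WT) and by 2.6 at day 5 (6.32 in Eomes-KD, 3.72 in WT). Day 4.5 was collected in exp1 and day 5 in exp2, so the day cannot be told apart from the experiment.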

How the results depend on the processing

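The log2 ratio of the endothelium share was 0.62 and lay between -0.15 and 1.07 without each library in turn. It was -0.10 with days 4.5 and 5 only, and it passed the threshold in none of the 17 alternatives. Of the atlas labels within the endothelium, 2 were called. The number was 0 with DESeq2, with days 4.5 and 5 only and among cells above the median RNA count. It was also 0 among cells with an RNA count of 10000 to 20000 (added after seeing the data). With label scores of 0.6 or more it was 4. That score was higher in Eomes-KD endothelium, so the cut need not keep equal parts of the groups. Without each library the number of labels called lay between 0 and 2. For mapped stages 1 was called, against 3 with TMM factors, 2 with no minimum number of cells, and 1 to 2 without each library. E8.0 had a ratio of 0.43 with TMM factors, 0.18 above the median RNA count and 0.059 in the RNA count range, against -0.44. Among all annotated cells Allantois_endothelium turned to 0.28 with TMM factors, 0.035 above the median RNA count and 0.20 with scores of 0.6 or more, Endocardium lay between -0.16 and 1.75 and Venous_endothelium between -1.52 and 0.073 without each library, and none was called. Causes of these changes were not tested.

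With the replicate block, in which libraries were paired by day and experiment, the endothelium ratio was 0.37 (edgeR adjusted p = 0.458) and the same calls were made: EMP and Haematoendothelial_progenitors (adjusted p = 0.0259 each) and E7.75 (0.000647). The fit of labels with no minimum number of cells could not be made, and with a single cluster there was no result to vary for clusters. Of 124 alternatives to the within-day differences of measures and map positions, 95 moved by less than the margin of an interval over cells, and 29 by more. For measures and distances this was the margin of the difference, from the cells of 1 library per group. For the share of nearest cells it was the margin of a binomial interval of the pair's Eomes-KD share, at the number of WT cells. Neither covers the spread between cultures. The sign turned for 4 values, each of a difference smaller than its interval: among cells above the median RNA count, the day 5 RNA count (-1588 against 1111) and genes detected (-277 against 231.5), and among cells with a doublet score under 0.5, the doublet score (0.02 against -0.03 at day 4.5, 0.05 against -0.08 at day 5). WT endothelium had 52 cells at day 4.5 and 7 at day 4.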
